A study of Mus musculus with 6 samples.

Results

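The genes described here encode the Toll-like receptors of the cell surface and the proteins that deliver lipopolysaccharide (LPS), the outer-membrane glycolipid of Gram-negative bacteria, to them. The set was listed by name, with earlier results of these data known. It has 10 members out of 22180 genes measured, namely Ly96, Tlr4, Cd14, Lbp, Cd180, Ly86, Tlr1, Tlr2, Tlr5 and Tlr6. Each member was represented by 1 row of the array table that carried its symbol alone, so all 10 could be followed. RNA was hybridised to Affymetrix arrays from a mouse acute myeloid leukaemia cell line derived from 1 leukaemic animal that lacked the upstream regulatory element (URE) of Spi1, the gene of the ETS transcription factor PU.1. All cells therefore carried the URE deletion and had low PU.1. They received either DB2313, a small molecule described in the labels as a PU.1 inhibitor, at 330 nM for 24 h (3 arrays), or an equal volume of water as vehicle for 24 h (3 arrays), and no LPS or other ligand was named in the labels. The labels call the arrays of a group biological replicates and do not say whether the cultures were started separately, so the p-values below reflect only how far these arrays differed from each other.

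LPS reaches its receptor through a chain of proteins. LBP, a secreted lipid transfer protein, extracts LPS from membranes, CD14 passes it on, and MD-2, the product of Ly96, holds its lipid part in a pocket while bound to the outer part of TLR4. In mice, cells without MD-2 do not respond to LPS, and TLR4 depends on MD-2 for its normal arrival at the cell surface. The product of Cd180, RP105, is a relative of TLR4 without the intracellular signalling domain, and it pairs with MD-1, the product of Ly86, as TLR4 pairs with MD-2. TLR2 recognises bacterial lipopeptides together with TLR1 or TLR6, and TLR5 recognises flagellin.

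The labelled cell type was checked against its markers. Of 15 myeloid genes, 13 had a signal above the median of all genes, among them the neutrophil granule protease gene Elane with a mean of 13.05 in both groups (log2). Cd33 and Spi1, of the same list, fell with DB2313 (log2 differences -1.85 and -0.37), and the other 13 did not pass. Those of the 15 below the median were Cd34, a progenitor marker (4.63 with DB2313 and 4.59 with vehicle), and Ptprc, the pan-leukocyte marker CD45. The row of Ptprc was dim in both groups (3.31 with DB2313 and 3.32 with vehicle). Of the markers of other cells, 1 of 9 B lymphoid, 0 of 6 T and NK lymphoid, 2 of 6 dendritic, 1 of 6 hepatocyte and 4 of 8 fibroblast and endothelial genes lay above the median. The single marker of these to pass was the endothelial cadherin Cdh5, which rose by 0.86 (limma adjusted p = 0.00222), and the part of other cells in the results was not tested. The median signal of the arrays lay between 5.15 and 5.21, and Pearson's r across genes was between 0.994 and 0.997 for every pair of arrays.

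With DB2313 the RNA signal of 1 of the 10 members was lower. Ly96 fell, and none of the other 9 passed the test in either direction, although Lbp had an unadjusted p under 0.05. The test was limma's moderated test on log2 signals, fitted to all 22180 genes, with an adjusted p under 0.05 (Benjamini-Hochberg over all genes) as the threshold. Over all genes tested, 1.81% passed, 0.789% as lower and 1.02% as higher, so 1 call among 10 genes is a small count, and what follows rests on the size of that 1 difference. The median log2 difference of the members was -0.01, against -0.00 for all genes tested.

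Ly96 had log2 signals of 5.54, 5.52 and 5.86 on the DB2313 arrays, against 8.08, 7.68 and 7.74 on the vehicle arrays. The groups lay far apart, with a gap of 1.82 between the highest DB2313 array and the lowest vehicle array. On the linear scale the same arrays read 46.5, 45.8 and 58.0 with DB2313 and 271, 205 and 214 with vehicle. The means were 5.64 ± 0.19 with DB2313 and 7.83 ± 0.22 with vehicle (SD, n = 3 each), a log2 difference of -2.20 (SE 0.13, 95% confidence interval -2.51 to -1.89, limma adjusted p = 0.000531). The signal was 4.59-fold lower with DB2313, a difference far beyond the spread within either group, and it ranked 2 among all genes ordered from the steepest fall. As the samples were bulk RNA, fewer cells expressing a gene and less RNA per cell cannot be told apart, here or for any gene below. The exact permutation test on Ly96 alone gave p = 0.1, the smallest that 3 arrays against 3 can give. As the set was chosen with earlier results known, these p-values and the rank describe the fall and are no independent test.

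**Figure D1:**
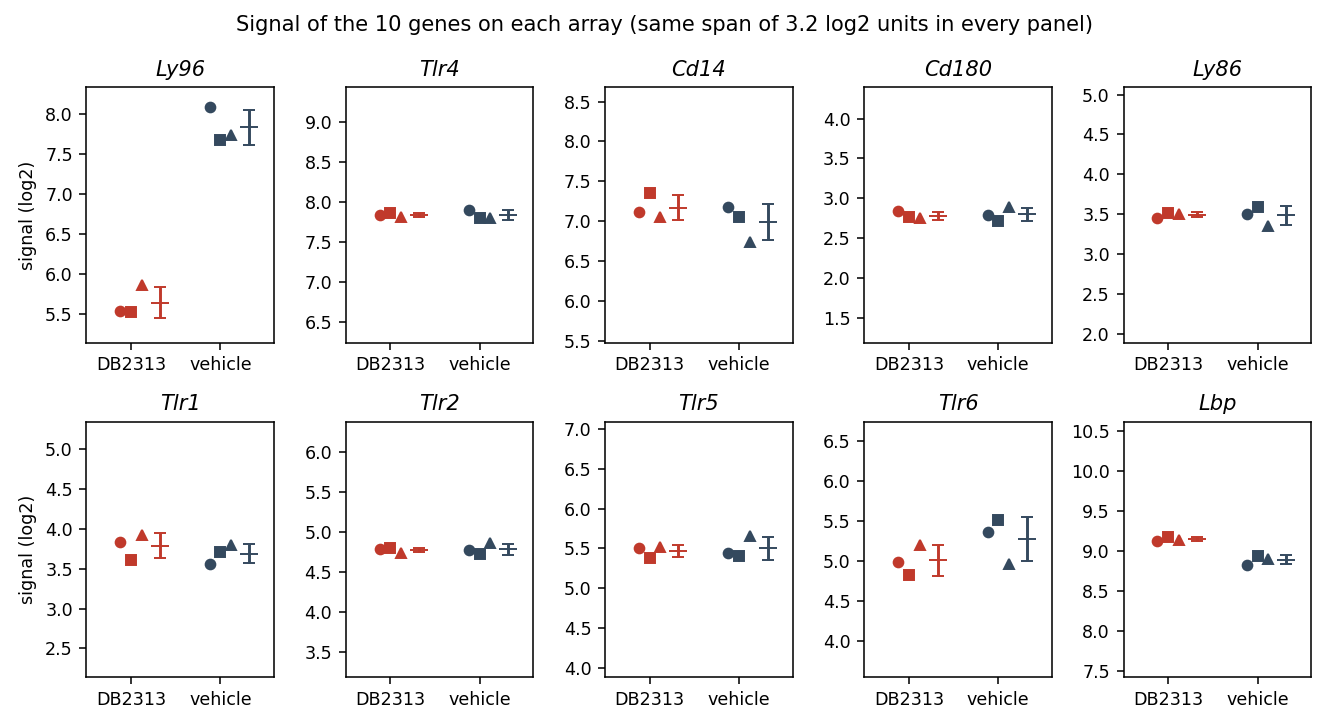
Log2 signal of each of the 10 genes on every array, DB2313 in red on the left and vehicle in dark blue on the right, with circles, squares and triangles for replicates 1, 2 and 3 and the mean ± SD beside the points. Every panel spans the same number of log2 units around its own centre. Ly96 has 2 clouds far apart (5.52 to 5.86 with DB2313, 7.68 to 8.08 with vehicle). The points of each other gene lie closer together, with a range over the arrays of up to 0.68 (Tlr6). The groups of Lbp are separated by a small gap of 0.18.

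Tlr4, which encodes the receptor that MD-2 binds, had signals of 7.83, 7.87 and 7.81 with DB2313, against 7.90, 7.80 and 7.80 with vehicle. The ranges overlapped and all 6 arrays lay within 0.10 of each other. They differed by a log2 value of 0.00 with an interval from -0.14 to 0.14 (SE 0.06, limma adjusted p = 0.996). That interval bounds any change of Tlr4 RNA to a small size next to that of Ly96.

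Cd14, the gene of the co-receptor that hands LPS to MD-2, read 7.11, 7.35 and 7.05 with DB2313, against 7.17, 7.05 and 6.73 with vehicle. These groups overlapped, and vehicle replicate 3 was the lowest array. Cd14 had a log2 difference of 0.19 with an interval from -0.11 to 0.48 (SE 0.13, limma adjusted p = 0.627). With 1 array left out the difference ran from 0.06 without vehicle replicate 3 to 0.28 without vehicle replicate 1 (adjusted p = 0.885 and 0.489), and it was 0.09 without DB2313 replicate 2 (adjusted p = 0.863).

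Lbp, known as a plasma protein made mainly by hepatocytes, had signals of 9.13, 9.17 and 9.14 with DB2313, against 8.83, 8.94 and 8.90 with vehicle. All 3 DB2313 arrays lay above all 3 vehicle arrays, by a gap of 0.18. Non-overlapping groups were common, however, as they were found for 19.3% of all genes tested and for 2 of the 10 members, Ly96 and Lbp. The log2 difference of Lbp was 0.26 (SE 0.06, interval 0.12 to 0.40) and did not pass over all genes (limma adjusted p = 0.107). It passed with the dimmer part of the genes, those below the median, removed (adjusted p = 0.0232), after an offset of 32 was added to the linear signals (0.0140) and with a trended and robust prior (0.00602). In the other 13 alternative settings it did not pass, with limma adjusted p from 0.175 to 0.299 when 1 array was left out. The row of Lbp was brighter than 92.8% of all genes. Of 6 hepatocyte markers, 1, Apoa1, lay above the median and none passed the test, also at an unadjusted p under 0.05 in limma. The sequence targeted by the Lbp row was not checked here.

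The difference between the change of Ly96 and that of each other member was examined within arrays, since the signals of different probe sets cannot be set against each other but their changes can. For Ly96 minus Tlr4 the 6 values were -2.30, -2.35 and -1.96 with DB2313, against 0.18, -0.12 and -0.06 with vehicle. The difference of the changes was -2.20, with a 95% interval from -2.63 to -1.77 on 4 residual degrees of freedom. For Cd14 it was -2.38 (interval -2.99 to -1.77). Against the dim rows of Ly86 and Cd180 it was -2.21 (interval -2.70 to -1.71) and -2.18 (interval -2.69 to -1.68). Over all 9 pairs it ran from -1.93 for Tlr6 to -2.46 for Lbp, and the bound nearest to 0 was -1.38. In each of the 9 pairs the DB2313 arrays lay entirely below the vehicle arrays, and the exact permutation p was 0.1, the smallest possible, before any adjustment over the pairs. A threshold of 0.05 cannot be reached in that test with this design. The rows of Cd180, Ly86 and Tlr1 were dim, brighter than only 6.32%, 17.5% and 22.1% of all genes, so a fall of these could hardly have shown. All 9 pairs share the same Ly96 values, so they are not 9 separate results. As the other members changed little beside Ly96, each pair mostly restates the fall of Ly96.

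**Figure D2:**
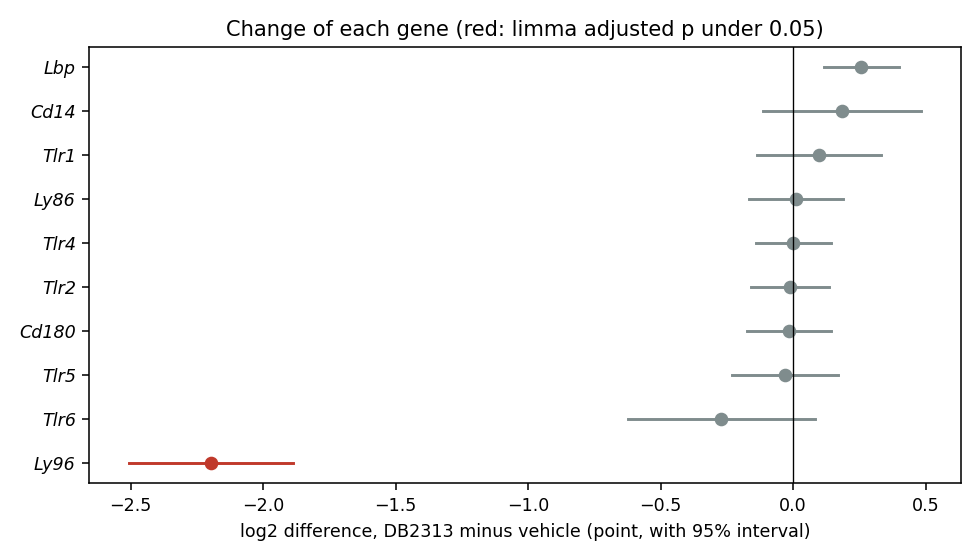
Log2 difference between DB2313 and vehicle (horizontal axis, DB2313 minus vehicle) for each of the 10 genes, with points for the estimates and lines for the 95% confidence intervals of the limma fit. Ly96 stands alone at -2.20 in red, and the intervals of the other genes except Lbp (0.12 to 0.40) include 0.

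The pair of RP105 and MD-1 gave dim rows in both groups. Cd180 had signals of 2.84, 2.76 and 2.75 with DB2313, against 2.80, 2.72 and 2.89 with vehicle. Its log2 difference was -0.02 (interval -0.18 to 0.14, limma adjusted p = 0.952). Ly86, the closest relative of Ly96 in this set, read 3.46, 3.52 and 3.51 with DB2313, against 3.51, 3.59 and 3.35 with vehicle. Its log2 difference was 0.01 (interval -0.17 to 0.19, limma adjusted p = 0.975). Both genes had overlapping groups. By the mean over all 6 arrays, the row of Ly96 was brighter than 67.9% of all genes and that of Tlr4 than 81.4%. With DB2313 alone, however, the Ly96 mean of 5.64 lay near the median signal of all genes, 5.17. How far background limited the size of its fall was not tested.

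The receptors for lipopeptides and flagellin did not pass either. Tlr2, the shared chain of the lipopeptide receptors, lay between 4.74 and 4.80 with DB2313 and between 4.72 and 4.86 with vehicle, a log2 difference of -0.01 (interval -0.16 to 0.13, limma adjusted p = 0.962). Its partner gene Tlr1 was dim, with 3.84, 3.61 and 3.92 on the DB2313 arrays and 3.56, 3.71 and 3.80 on the vehicle arrays (log2 difference 0.10, adjusted p = 0.760). The groups of both genes overlapped. The rows of Tlr2 and of Tlr6, described next, were brighter than 42.9% and 49.6% of all genes. Both were thus below the median, and a fall of either had less room to show than in a bright row.

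Tlr6, the other partner of TLR2 and the neighbour of Tlr1 in the RefSeq gene order, was the most variable of the 9. It had 4.99, 4.83 and 5.21 with DB2313, against 5.36, 5.51 and 4.97 with vehicle, so that vehicle replicate 3 fell among the DB2313 arrays. The log2 difference was -0.27 with an interval from -0.62 to 0.08 (SE 0.15, limma adjusted p = 0.530), and it ran from -0.16 without vehicle replicate 2 to -0.43 without vehicle replicate 3 (adjusted p = 0.752 and 0.241). It was -0.18 without DB2313 replicate 2 (adjusted p = 0.771). Tlr5, the flagellin receptor, lay between 5.39 and 5.52 with DB2313 and between 5.40 and 5.66 with vehicle (log2 difference -0.03, adjusted p = 0.929).

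Promoter sequences are shown because PU.1, the factor the compound is aimed at, binds purine-rich boxes with the core GAGGAA. Windows of 300 bases, from 250 before to 50 after the annotated start, came from RefSeq (GRCm38.p6) and were searched for GAGGAA on both strands. Windows were searched for 6 of the 10 members, and 1 of these 6 genes, Tlr1, had a match. Ly96, Tlr4, Cd14 and Lbp were not searched here. Among all 27025 genes with a window, 31.3% had a match in at least 1, and among all 32851 windows, 28.3% held one. Among genes past the threshold described further on, windows were found for 4 of 7 pathway genes and for 3 of 5 genes with a profile near that of Ly96, of which 2 and 2 had a match in at least 1 window. Those with a match were Nlrp3, Pparg and Cd33, which fell, and Irak3, which rose, and those without were Socs3, Il1rn and C5ar1, which fell. The windows printed are those of Tlr1 and Ly86 from the set, and of Nlrp3 and Cd33, chosen from the genes that fell because their windows hold a match. Each is given from 5′ to 3′ on the strand of its gene, with matches to GAGGAA or its reverse complement in capitals. They lie at chr5:64933509-64933808 on the minus strand for Tlr1 (window 1 of 2), chr13:37345095-37345394 on the plus strand for Ly86, chr11:59542436-59542735 on the plus strand for Nlrp3 (window 1 of 2) and chr7:43533122-43533421 on the minus strand for Cd33.
Tlr1: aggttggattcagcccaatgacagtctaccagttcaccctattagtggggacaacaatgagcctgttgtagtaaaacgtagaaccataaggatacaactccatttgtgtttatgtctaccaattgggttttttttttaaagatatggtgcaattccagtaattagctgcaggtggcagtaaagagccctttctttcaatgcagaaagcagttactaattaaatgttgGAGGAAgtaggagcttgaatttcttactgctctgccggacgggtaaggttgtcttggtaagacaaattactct
Ly86: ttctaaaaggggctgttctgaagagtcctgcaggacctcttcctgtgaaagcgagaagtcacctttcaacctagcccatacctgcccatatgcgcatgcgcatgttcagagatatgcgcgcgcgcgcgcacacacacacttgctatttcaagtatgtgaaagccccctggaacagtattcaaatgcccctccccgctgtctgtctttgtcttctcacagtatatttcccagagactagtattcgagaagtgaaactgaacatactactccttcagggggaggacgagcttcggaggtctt
Nlrp3: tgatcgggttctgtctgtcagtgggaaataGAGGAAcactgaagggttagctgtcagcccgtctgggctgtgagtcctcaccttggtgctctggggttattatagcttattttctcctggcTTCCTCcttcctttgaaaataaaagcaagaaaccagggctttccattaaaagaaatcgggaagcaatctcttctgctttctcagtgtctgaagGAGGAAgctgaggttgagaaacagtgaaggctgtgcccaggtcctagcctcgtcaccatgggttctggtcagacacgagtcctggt
Cd33: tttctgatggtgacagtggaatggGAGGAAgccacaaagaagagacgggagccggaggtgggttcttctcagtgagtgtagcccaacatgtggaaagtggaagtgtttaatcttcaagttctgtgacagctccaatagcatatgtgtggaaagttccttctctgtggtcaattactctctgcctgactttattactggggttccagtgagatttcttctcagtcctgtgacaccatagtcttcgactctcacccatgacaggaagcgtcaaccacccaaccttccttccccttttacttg
The printed window of Nlrp3 held 3 matches, 1 of them on the opposite strand, those of Tlr1 and Cd33 held 1 each and that of Ly86 none. Window 2 of Nlrp3 and window 2 of Tlr1, not printed, held none. A match is a run of letters and not a measured binding site, and its absence says only that these letters are not in the window.

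The genes next to Ly96 on its chromosome, named for their position, did not pass the test. In RefSeq order the nearest protein-coding genes were Eloc and Tmem70 on one side and Jph1 and Gdap1 on the other. Their log2 differences were -0.19, -0.08, 0.03 and 0.32, with limma adjusted p of 0.477, 0.749, 0.946 and 0.409. The groups overlapped for all 4.

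Genes elsewhere in the genome with a profile like that of Ly96 were found by the root mean square distance over the 6 arrays, after each gene was centred on its vehicle mean. The 5 nearest named genes were Xdh, the purine catabolic enzyme xanthine dehydrogenase, at 0.285, C5ar1, the receptor for a complement fragment, at 0.321, and Pparg, a nuclear receptor of lipid metabolism, at 0.326. Clmp, an adhesion molecule gene, followed at 0.342 and Cd33, a sialic acid-binding receptor, at 0.394. Pearson's r with Ly96 over the same 6 arrays, all from 1 line and in 2 groups, was 0.986, 0.970, 0.967, 0.990 and 0.953. Xdh fell further than Ly96 on each DB2313 array, and Cd33 fell less. The distance was chosen to find genes that fell by a like amount, so their falls are a description. After the offset of 32 the log2 differences shrank to -1.61 for Xdh, -1.10 for C5ar1 and -1.11 for Pparg, against -2.50, -1.91 and -1.94 without it, and Clmp had -1.76 in its brightest row but -0.93 as the mean of its rows.

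**Figure D3:**
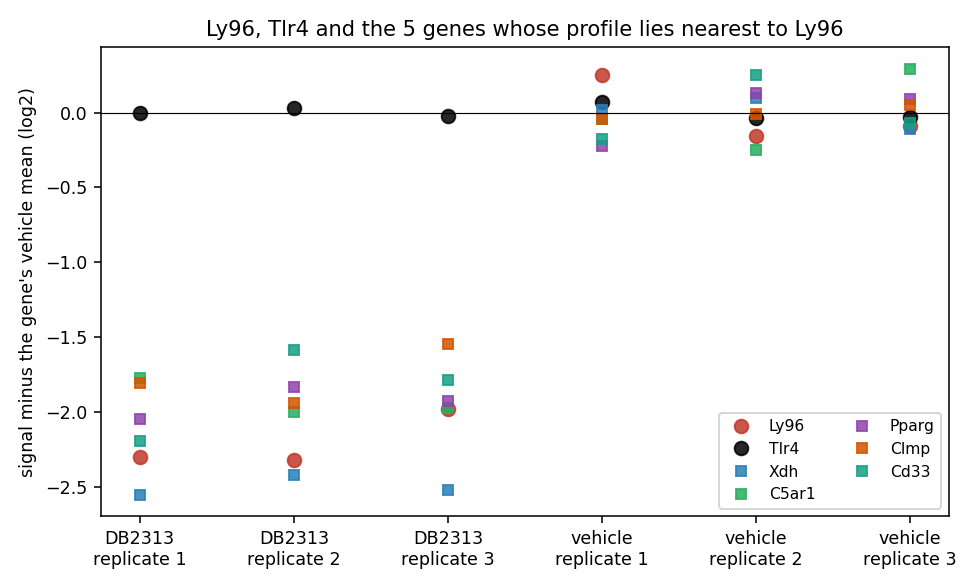
Log2 signal of Ly96 (large red circles), Tlr4 (large black circles) and the 5 genes nearest to Ly96 (coloured squares) on each array, as the difference from each gene's own vehicle mean. On the 3 DB2313 arrays Ly96 and the 5 genes lie well below 0 and Tlr4 stays at 0.

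Other genes of the Toll-like receptor pathway were grouped by role in 7 lists that held 101 measured genes. Of these, 6 fell, 1 rose and 94 did not pass. The share of genes called over the whole table was 1.81%, and 3.36% among genes above the median signal, to which 73 of the 101 belonged. Groups did not overlap for 34 of the 101 genes, or 33.7%, against 19.3% of all genes and 28.2% of those above the median. The median log2 difference over the 101 genes was -0.01. The count of falls was 1 or 2 when any 1 array was left out (1 without DB2313 replicate 1, 2 without DB2313 replicate 2, 1 without DB2313 replicate 3, 2 without vehicle replicate 1, 1 without vehicle replicate 2 and 2 without vehicle replicate 3).

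Among receptors outside the set, Tlr7, the endosomal sensor of single-stranded RNA, fell as 1 of 7 endosomal and other Toll-like receptor genes (median log2 difference -0.07). It had signals of 5.29, 5.62 and 5.29 with DB2313, against 6.40, 6.34 and 6.10 with vehicle, and the groups did not overlap. The log2 difference was -0.88 (SE 0.12, limma adjusted p = 0.0133), or -0.56 with an offset of 32. Its call was lost without DB2313 replicate 1 (adjusted p = 0.0631), DB2313 replicate 3 (0.0641), vehicle replicate 1 (0.0691) or vehicle replicate 2 (0.0593). The rows of the other 6, Tlr3, Tlr8, Tlr9, Tlr11, Tlr12 and Tlr13, had mean signals between 2.94 and 4.50 with DB2313 and between 2.96 and 4.46 with vehicle, and none passed.

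The chaperones and traffic factors gave 1 fall among 9 measured genes. Unc93b1 encodes the membrane protein that carries the nucleic acid-sensing Toll-like receptors to endosomes, and TLR5 to the cell surface. It had 7.39, 7.33 and 7.50 with DB2313, against 7.75, 7.82 and 7.85 with vehicle (log2 difference -0.40, SE 0.07, limma adjusted p = 0.0378). The groups did not overlap, but no call remained after the removal of any single array (adjusted p between 0.0681 and 0.142). Hsp90b1 and Cnpy3, the chaperone and its partner that fold surface Toll-like receptors including TLR4, were named for that role and had log2 differences of -0.04 and 0.08 (adjusted p = 0.867 and 0.709).

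Among 12 genes that handle LPS or bacterial products by other routes, Itgb2, the beta chain of the leukocyte integrins that include complement receptor CR3, fell. Its signals were 8.75, 9.01 and 9.06 with DB2313, against 9.46, 9.74 and 9.74 with vehicle. Its log2 difference was -0.70 (SE 0.11, limma adjusted p = 0.0249). The call was held without vehicle replicate 1 (adjusted p = 0.0423) and lost without any other array (adjusted p from 0.0641 to 0.0966). Itgam, the alpha chain of the same integrin, had -0.27 and did not pass (adjusted p = 0.501). Aoah, the lipase that deacylates LPS, and Casp4, the mouse intracellular LPS sensor caspase-11, had log2 differences of 0.46 and 0.30 with non-overlapping groups and did not pass (adjusted p = 0.160 and 0.199). Lcn2 and Scarb1, of the same list, had -0.48 and -0.21, also with non-overlapping groups, and did not pass (limma adjusted p = 0.0550 and 0.192). Of the 12 genes, 7 had a log2 difference below 0, and the median was -0.04. Groups did not overlap for 5 of the 12, or 41.7%, against 19.3% of all genes and 28.2% of those above the median signal. The genes of this paragraph other than Itgb2 were named after their values were seen.

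None of 15 receptor-proximal adaptors and kinases passed in limma, and 3 had an unadjusted p under 0.05 (median log2 difference 0.04). Many genes met that cut. Rela, a gene of the NF-kB arm with an unadjusted limma p of 0.0503, had rank 2823 by p among all 22180 genes. Whether the counts at that cut, here and for the 13 genes below, exceed the share over all genes was not tested. Nearest to the threshold were Irak2, a kinase recruited to MyD88 (-0.36, limma adjusted p = 0.0604), and Ticam2, the adaptor TRAM that links TLR4 to TRIF (-0.60, limma adjusted p = 0.103). With a trended and robust prior both passed (adjusted p = 0.0135 and 0.0289). Of 16 alternative settings, Irak2 passed in 5 and Ticam2 in 2. With 1 array left out neither passed (limma adjusted p from 0.101 to 0.188 and from 0.0557 to 0.280). Ticam2 read 4.85, 5.14 and 4.87 with DB2313, against 5.59, 5.79 and 5.28 with vehicle, without overlap. Myd88, Tirap and Ticam1, the genes of the other adaptors of TLR4, were named for that role and had log2 differences of 0.01, 0.10 and 0.04 (adjusted p = 0.965, 0.603 and 0.938). None of 13 genes of the NF-kB, IRF and MAP kinase arms passed either in limma, and 4 had an unadjusted p under 0.05 (median -0.01). Nearest to the threshold were Map2k6, a kinase that activates p38 (-0.35, limma adjusted p = 0.0519), and Ikbke, a kinase of interferon regulatory factors (-0.33, limma adjusted p = 0.0776). These too passed with a trended and robust prior (adjusted p = 0.0480 and 0.00487). Each passed in 4 of 16 alternative settings. With 1 array left out neither passed (limma adjusted p from 0.0751 to 0.181 and from 0.0579 to 0.227).

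Of 15 inhibitors of the pathway, 1 rose and 1 fell. Irak3 encodes IRAK-M, an inactive kinase that restrains signalling from Toll-like receptors in monocytes and macrophages. It rose, with 9.84, 9.91 and 9.91 on the DB2313 arrays, against 9.44, 9.46 and 9.38 on the vehicle arrays. The log2 difference was 0.46 (SE 0.06, limma adjusted p = 0.0113). The call was lost without DB2313 replicate 2 (adjusted p = 0.0573), DB2313 replicate 3 (0.0625), vehicle replicate 1 (0.0532) or vehicle replicate 3 (0.0509).

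Socs3, a feedback inhibitor of cytokine signalling, fell. It read 7.09, 7.16 and 6.99 with DB2313, against 7.56, 7.80 and 7.54 with vehicle (log2 difference -0.56, SE 0.09, limma adjusted p = 0.0250). Removal of any single array ended the call (adjusted p between 0.0579 and 0.109), and as the mean of all its rows the difference was -0.38 (adjusted p = 0.108).

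Of 30 measured genes that LPS is known to induce in macrophages, 2 fell, 28 did not pass and none rose (median log2 difference -0.03). At an unadjusted p under 0.05 in limma, a cut that many genes of the whole table met, 4 of the 30 were lower and none higher. Besides the 2 that passed these were Ccl3 (-0.30) and Ptgs2 (-0.20), named after their values were seen (limma adjusted p = 0.112 and 0.328). Nlrp3, the inflammasome sensor, fell to 4.64, 4.16 and 4.77 with DB2313, against 6.02, 5.81 and 5.97 with vehicle. Its log2 difference was -1.41 (SE 0.15, limma adjusted p = 0.00544), or -0.76 with an offset of 32, and the call held without each array in turn (adjusted p between 0.00559 and 0.0402). Il1rn, the interleukin antagonist, had 5.04, 5.12 and 4.99 with DB2313, against 5.35, 5.47 and 5.55 with vehicle (log2 difference -0.41, adjusted p = 0.0414), and removal of any single array ended its call (adjusted p between 0.0676 and 0.164). Tnf and Il1b, named for their role, had -0.10 and -0.11 (adjusted p = 0.768 and 0.852).

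**Figure D4:**
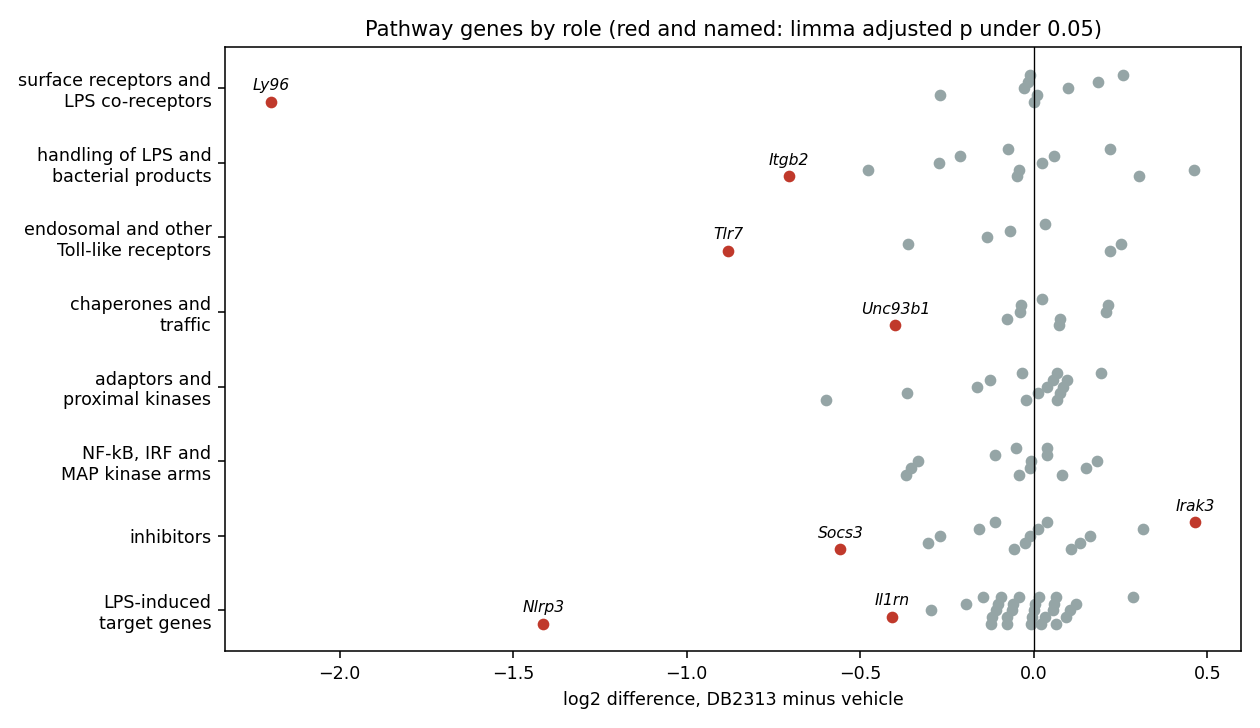
Log2 difference between DB2313 and vehicle for the 10 genes of the set (top row) and for the 101 measured pathway genes in 7 role groups, with 1 point per gene and small vertical offsets only to separate points. Ly96 at -2.20 and Nlrp3 at -1.41 lie farthest to the left, Irak3 at 0.46 is the 1 red point to the right of 0, and most grey points lie near 0.

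Spi1, the gene of the factor itself, read 6.52, 6.49 and 6.50 with DB2313, against 6.79, 6.88 and 6.95 with vehicle. The log2 difference was -0.37 (SE 0.06, limma adjusted p = 0.0342), and removal of any single array ended the call (adjusted p between 0.0648 and 0.134). All values are of RNA, and the amounts of MD-2 or TLR4 protein at the cell surface were not measured here.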

How the data were processed

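Total RNA was labelled with a whole-transcript terminal labelling kit and hybridised to Affymetrix arrays, per the labels' protocols. Affymetrix Expression Console was used, per the submitters' processing notes. Background correction, summarisation and genome build, not given in the sources used here, are unknown. The deposited values are on the log2 scale, as judged from their range, and near-equal quartiles on the 6 arrays show that the authors' values were probably brought to a common distribution, which would hide an overall shift in RNA content. Scanner files were not used, so background per probe set and scan batches were not examined.

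Of 41345 rows, 23521 had 1 symbol in the platform annotation, 1814 had several and 16010 had no entry. Rows with 1 symbol entered, with the brightest row over 6 arrays for the 1082 genes with several rows, which left 22180 genes. DB2313 was compared with vehicle in limma 3.58.1 (R 4.3.3; lmFit and eBayes, 2-sided, Benjamini-Hochberg over all genes at 0.05; prior with 3.61 degrees of freedom and an SD of 0.0972). Intervals are at 95%, and the number of arrays limits the precision. For the change of Ly96 minus that of another gene, a moderated fit over all genes had been planned, but its rows shared the noise of Ly96 and it called 22175 genes. Its p-values were not used, and the exact permutation test and an interval from the 4 residual degrees of freedom are given instead.

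The members and all lists were chosen with earlier results of these data known. Named were all members, Spi1, the list members past the threshold (up to 6 a list, otherwise the 2 with the smallest p) and the 5 genes nearest to Ly96. Other genes are said to be named for their role, their position or after their values were seen. List genes without a row of their own symbol alone (7 of 108) were not analysed here. On simulated data (22180 genes, of which 200 changed) the test recovered 53.8% of genes changed by a log2 difference of 0.5, 94.0% at 1 and 99.8% at 2. Each rate is over all changed genes together, so none can be applied to dim rows such as those of Cd180, Ly86 and Tlr1. Alternatives covered filters on dim genes, normalization, an offset, the prior, the replicate block, the choice of rows and each array left out.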

Additional observations from a re-analysis of the deposited data

How the results depend on the processing

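The fall of Ly96 had the same direction in all 16 alternatives, from -2.31 to -1.67, and passed in 15. With an unmoderated test per gene its adjusted p was 0.0538, so 0 members passed as lower there, and with 1 array left out it was between 0.00211 and 0.00586. No member passed as higher in the main fit, against 1, Lbp, with the filter at the median signal, with an offset of 32 and with a trended and robust prior. The filter at the 0.25 quantile left out Cd180, Ly86 and Tlr1, and that at the median also Tlr2 and Tlr6. With an offset of 32, which damps dim genes, the change of Ly96 minus that of another member was -1.67 for Tlr4, -1.82 for Cd14, -1.67 for Cd180, -1.67 for Ly86, -1.70 for Tlr1, -1.66 for Tlr2, -1.65 for Tlr5, -1.53 for Tlr6 and -1.91 for Lbp. Members near 0 changed sign without passing, and with 1 array left out they ran from -0.0158 to 0.0349 for Tlr4, -0.0575 to 0.0277 for Cd180, -0.0562 to 0.0642 for Ly86, -0.0445 to 0.0248 for Tlr2 and -0.0793 to 0.0503 for Tlr5. Tlr4 also had -0.0088 after quantile normalization. The sign turned without vehicle replicate 3 for all 5, without DB2313 replicate 3 for Cd180 and Tlr2, without DB2313 replicate 2 for Tlr4, Ly86 and Tlr5, and without vehicle replicate 2 for Tlr4. Of the pathway genes, 6 passed as lower in the main fit, against 11 with the 0.25 quantile filter and 13 with the median filter. The count was 13 with an offset of 32, 15 with a trended and robust prior and 0 with an unmoderated test per gene. It was 1 with all rows tested and 1 to 2 with 1 array left out. As higher, 1 passed in the main fit, against 3 with the median filter, 3 with an offset of 32 and 5 with a trended and robust prior. That count was 0 with the replicate block, 0 with all rows tested and 0 to 1 with 1 array left out. For these counts, filters test fewer genes, leaving out an array leaves fewer samples, and otherwise the cause was not tested. Over all genes, 401 passed, against 529 and 799 with the filters, 830 with the offset, 920 with the trended and robust prior, 70 without moderation, 190 with the replicate block, 142 with all rows tested and 136 to 187 with 1 array left out. Deviations of samples with the same replicate number had r = 0.0226, 0.0781 and 0.00828 across genes. For unlike numbers r ran from -0.0712 to 0.0471. Such low values across all genes cannot settle whether the numbers pair the samples. With the replicate block Ly96 was still past the threshold at -2.20. Dim rows, such as those of Cd180, Ly86 and Tlr1, limit what could be detected.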
